A study of Mus musculus with 8 samples.

Results

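The 31 genes described here carry out or control cholesterol and fatty acid synthesis, and they were followed in ureteric bud cells of newborn mice with and without the histone methyltransferase gene Dot1. Every non-control probe whose RefSeq transcript belongs to 1 of the 31 genes was taken, which gave 43 probes. Of these, 42 passed the filter on dim or outlying spots, and every one of the 31 genes kept at least 1 probe, out of 23343 genes or unnamed transcripts tested in the whole series. The genes fall into 16 sterol enzymes, 6 genes of sterol sensing and transport, and 9 fatty acid enzymes.

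Collecting ducts of the kidney arise by branching of the ureteric bud, an epithelial outgrowth of the nephric duct. Its cells were obtained from kidneys of C57BL/6 mice at postnatal day 0 by sorting for GFP, and the series compared 4 wildtype samples (WT 1 to WT 4, genotype given as control) with 4 DOT1-null samples (KO 1 to KO 4) from a conditional knockout in Hoxb7-positive cells. Hoxb7 marks the ureteric bud lineage, and the labels name neither the Cre driver nor the source of the GFP in either group. How many animals gave each sample is not stated in them. Each sample was read in Cy5 on its own 2-colour array against the RNA of WT 3 in Cy3, so WT 3 was hybridised with itself. Values below are log2 ratios of the sample to that RNA. A ratio has meaning only beside the same gene on the other arrays, because dye effects were not balanced by a swap and WT 3 against itself did not read 0 for every gene.

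Cholesterol is built from acetyl-CoA through mevalonate, squalene and lanosterol. Fatty acids are built from the same precursor by a carboxylase and a synthase, and are then lengthened by elongases and unsaturated by desaturases. The transcription factors encoded by Srebf1 and Srebf2 drive both routes. SCAP carries them out of the endoplasmic reticulum when sterols are low, and the INSIG proteins hold them there when sterols are high.

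The arrays did not separate cleanly by genotype. On the first principal component of all genes, which took up 55.8% of the variance, WT values ran from -25.72 to -18.40 and those of KO 1, KO 3 and KO 4 from 24.16 to 50.21, whereas KO 2 lay at -19.89. KO 3 was the brightest array, with 95.2% of spots well above background in Cy5 against 52.4% to 68.9% on the other 7, and 7665 of its spots were marked as outliers against 175 to 216 on the others. Dhcr7, Insig1 and Fasn had no usable spot on KO 3 and rest on 3 KO arrays. The arrays shared 1 slide, with KO in row 1 and WT in row 2, and an effect of row and one of genotype cannot be told apart. The targeted gene is Dot1l by its current symbol, and its single probe read 0.03, -0.05, -0.11 and 0.07 on WT 1 to WT 4 and 0.35, 0.03, -0.04 and 0.30 on KO 1 to KO 4. It was not lower in KO, as the difference on the log2 scale was 0.18 ± 0.11 (SE, adjusted p = 0.342 in limma). With KO 2 and KO 3 left out the probe was called higher in KO, at 0.34 ± 0.09 (limma adjusted p = 0.0299). The probe does not check the labels, since the labels do not say which exons were deleted. Results are therefore given with all 8 arrays and, where a call changes or a member's value moves by over 1.5 times, also without KO 2 or with KO 2 and KO 3 left out. KO 2 was picked because it lay among the WT arrays in these same data, so fits without it favour larger differences. Adjusted p-values of the reduced fits are therefore descriptive only. With KO 2 and KO 3 left out, the KO group is KO 1 and KO 4. Single arrays mattered too: with 1 array left out, 25 of the 31 members had a value that turned in sign or moved by over 1.5 times, and Sqle, Srebf1, Stard4, Scd1, Scd2 and Fads2 did not.

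All 14 markers of the ureteric bud that were listed were well above background on all 4 WT arrays. As a list they had 9 of 14 log2 differences between KO and WT below 0 and a median of -0.19. They ran from -0.82 ± 0.23 (SE) for Wnt11 to 0.79 ± 0.20 for Krt18, and Hoxb7, which had the smallest p, was at -0.71 ± 0.08. Markers of other cells were also read. Stroma markers were below 0 for 8 of 8 genes (median -0.40, with list medians from 0.11 to 1.45 on the WT arrays and from -0.09 to 1.40 on the KO arrays), and nephron progenitor markers for 5 of 6 (median -0.74, with list medians from 0.09 to 1.22 in WT and -0.45 to 0.73 in KO). The remaining progenitor marker, Eya1, went the other way, at 1.11 ± 0.34, and had the smallest p of its list. In such sorted samples, fewer cells of a type and less RNA per cell cannot be told apart. The part that cell makeup plays in the values below was not tested.

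With all 8 arrays, none of the 31 genes passed limma's test at an adjusted p of 0.05, against 2 of all 23343 genes (0.00857%). Among the members, the stearoyl-CoA desaturase genes Scd2 and Scd1 had the largest differences, both above 0. At an unadjusted p under 0.05 there were 5 of 31 members (16.1%), below the 24.1% of all genes. Among the 28 members with values on all 8 arrays, 4 (14.3%) had KO and WT values with no overlap, against 11.5% of all genes. Of those 4, 3 were higher in KO (3.85% of all genes) and 1 was lower (7.64%). No member differed by 2-fold, as against 1.5% of all genes, and 22 of 31 lay within 0.2 of 0 on the log2 scale, 71.0% against 59.8% of all genes. Read against these backgrounds, the counts give no result particular to the 31 genes.

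**Figure D1:**
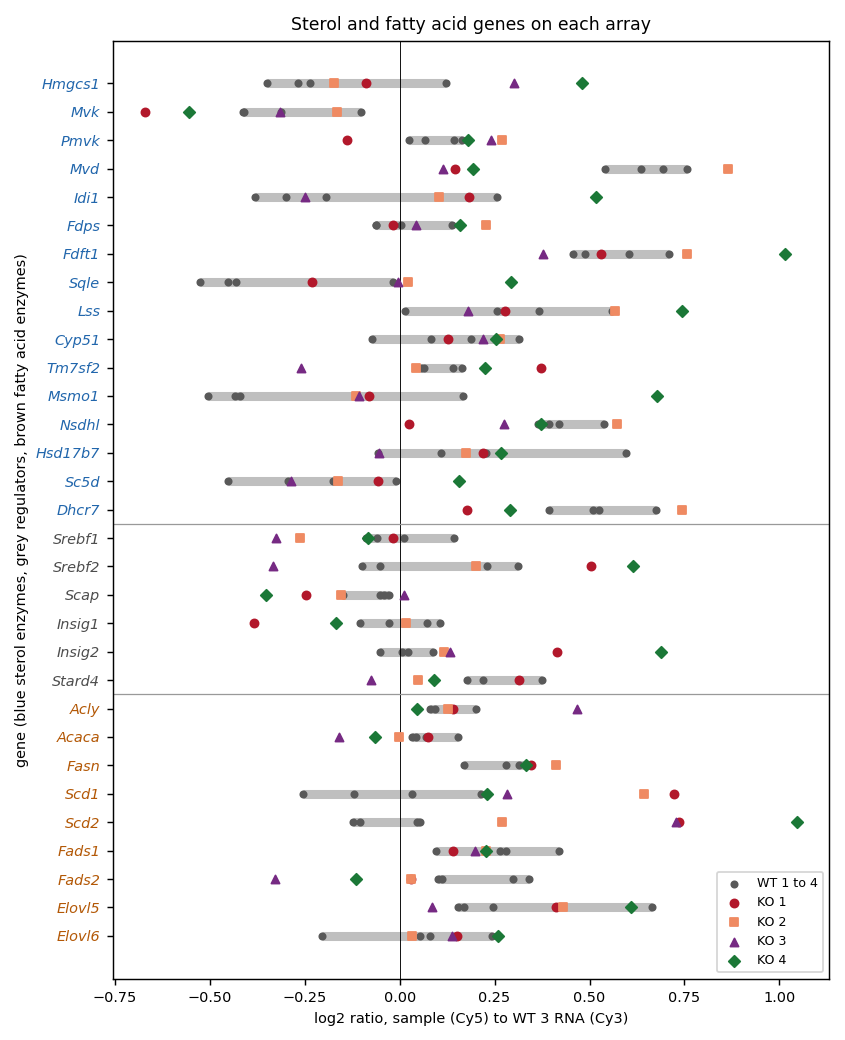
Each row is 1 gene and the x axis is the log2 ratio of the sample to WT 3 RNA. Grey points and bars show the 4 WT arrays and their range, and coloured points the 4 KO arrays. For Scd2 and Scd1 all KO points lie to the right of the WT bar, and for Mvd KO 1, KO 3 and KO 4 lie to its left and KO 2, at 0.86, to its right.

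Upstream sequences of 4 of the genes discussed below are shown. Among members with a window, these 4 had the smallest unadjusted p in limma with all 8 arrays, and none passed after adjustment. Msmo1, which came next by p, had a larger difference than Hmgcs1 (0.39 against 0.31) and is not shown. The sequences are the 250 bases before the annotated transcription start, from RefSeq on GRCm38.p6, which had windows for 24 of the 31 members. The windows lie at chr13:119690101-119690350 on the plus strand (Hmgcs1), chr8:122443423-122443672 on the minus strand (Mvd), chr1:121332590-121332839 on the minus strand (Insig2, the most upstream of 3 annotated starts and the only 1 of them with a match) and chr19:10101504-10101753 on the minus strand (Fads2). Capitals mark the letters TCACNCCAC, a sterol regulatory element, and CCAAT, the box bound by NF-Y, on either strand.
Hmgcs1: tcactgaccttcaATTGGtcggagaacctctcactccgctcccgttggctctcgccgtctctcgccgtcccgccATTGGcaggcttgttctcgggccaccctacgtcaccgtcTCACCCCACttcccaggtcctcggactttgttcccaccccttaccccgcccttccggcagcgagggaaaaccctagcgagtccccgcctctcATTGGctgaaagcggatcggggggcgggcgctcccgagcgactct
Mvd: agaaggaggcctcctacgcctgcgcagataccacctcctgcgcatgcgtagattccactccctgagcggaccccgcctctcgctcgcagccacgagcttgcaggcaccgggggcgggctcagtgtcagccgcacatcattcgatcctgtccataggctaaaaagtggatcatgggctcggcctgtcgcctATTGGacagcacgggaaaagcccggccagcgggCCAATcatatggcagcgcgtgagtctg
Insig2: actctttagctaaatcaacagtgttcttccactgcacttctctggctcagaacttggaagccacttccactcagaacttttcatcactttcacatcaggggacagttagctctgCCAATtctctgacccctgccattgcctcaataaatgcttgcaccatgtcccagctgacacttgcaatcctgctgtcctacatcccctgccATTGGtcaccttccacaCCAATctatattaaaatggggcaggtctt
Fads2: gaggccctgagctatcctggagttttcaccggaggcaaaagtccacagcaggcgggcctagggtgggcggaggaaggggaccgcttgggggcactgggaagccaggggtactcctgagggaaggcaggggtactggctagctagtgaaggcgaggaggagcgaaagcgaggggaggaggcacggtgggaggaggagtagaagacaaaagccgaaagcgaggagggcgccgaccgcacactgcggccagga

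The CCAAT letters stood in the windows of 19 of the 24 members (79.2%), against 37.5% of 27025 genes with windows of this length. Hmgcs1 was the only member with a match to TCACNCCAC, found in 1.22% of all genes, and its match begins 137 bases before the start. The letters CACGTG of an E-box stood in 6 of 24 members (25.0%) against 6.86%, and GGGCGG of a GC box in 19 of 24 (79.2%) against 35.4%. Both strands were searched, and none of the 4 motifs contains another. The 27025 genes were taken whether or not the arrays read them, whereas the members had all passed the filter on signal. The 2 sets are therefore unlike, and the shares do not show a trait particular to the members. These letters describe the windows and do not mark sites of binding, and which of the Insig2 starts its probe reads was not matched.

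The mevalonate arm converts acetoacetyl-CoA into the isoprenoid units of squalene. Its 6 members had a median log2 difference of 0.07 and lay on both sides of 0. Hmgcs1, which makes HMG-CoA, read 0.12, -0.35, -0.27 and -0.24 on WT 1 to WT 4 and -0.09, -0.17, 0.30 and 0.48 on KO 1 to KO 4. WT 1 was high among the WT arrays and the groups overlapped. The difference was 0.31 ± 0.16 (SE, n = 4 per group; limma adjusted p = 0.273), with a 95% confidence interval from -0.06 to 0.68. Without KO 4 it was 0.20.

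Idi1, the isomerase that makes dimethylallyl diphosphate, had a similar difference of 0.29 ± 0.18, and it was 0.51 with KO 2 and KO 3 left out (limma adjusted p = 0.0940) and 0.17 without KO 4. Fdps, which joins isoprenoid units into farnesyl diphosphate, had 0.10 ± 0.09, and 0.06 without KO 2. The kinase genes Mvk and Pmvk had -0.12 ± 0.13 and 0.04 ± 0.11, which became -0.30 (adjusted p = 0.0927) and -0.08 with KO 2 and KO 3 left out.

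Mvd, the decarboxylase that completes isopentenyl diphosphate, went the other way, and was singled out after its values were seen. It read 0.76, 0.63, 0.54 and 0.69 on WT 1 to WT 4 and 0.15, 0.86, 0.11 and 0.19 on KO 1 to KO 4. KO 2 was above every WT array and the other 3 KO arrays were below every one. With all arrays its difference was -0.33 ± 0.16 (SE; limma adjusted p = 0.250). Without KO 2 it was -0.51 ± 0.09 (adjusted p = 0.00581). It was -0.49 ± 0.09 (adjusted p = 0.00909) when KO 3 was also left out. Leaving out KO 2 also raised the number of genes called over the whole array from 2 to 4947 (21.2%), of which 2335 were higher (10.0%) and 2612 lower (11.2%), beside which 2 of 31 members were called, Mvd and Scd2. Without both KO 2 and KO 3, 23.6% of all genes were called (13.5% higher and 10.1% lower), and 4 of 31 members, Mvd, Scd2, Insig2 and Srebf2.

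At the second tested probe of Mvk, as for Mvd, KO 2 read high and the other 3 KO arrays lay below every WT array. It read 0.67, 0.44, 0.42 and 0.58 on WT 1 to WT 4 and 0.04, 0.68, 0.05 and -0.06 on KO 1 to KO 4. Its difference was -0.35 ± 0.16 (SE; adjusted p over all 31667 probes = 0.216, where 0.00632% of probes passed), and -0.52 without KO 2 (adjusted p = 0.00668). The brighter probe of Mvk had -0.20 without KO 2 (adjusted p = 0.251), so the 2 probes of this gene pointed the same way and differed in size. The 2 probes of Pmvk had 0.04 and -0.17.

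From squalene to cholesterol, the 10 enzyme genes had a median difference of 0.10, and 6 of 10 were above 0. Sqle, squalene epoxidase, a rate-limiting step of the pathway, was the 1 sterol enzyme gene with an unadjusted p under 0.05. It read -0.02, -0.45, -0.43 and -0.53 on WT 1 to WT 4 and -0.23, 0.02, -0.01 and 0.29 on KO 1 to KO 4. All KO arrays were above WT 2, WT 3 and WT 4, and KO 1 was below WT 1. The difference was 0.38 ± 0.14 (SE; limma adjusted p = 0.160), and it was 0.38 also without KO 2 (adjusted p = 0.126). With median centring in place of loess, which moved the median of all genes to -0.30, Sqle was at -0.11 and Hmgcs1 at -0.28, so the sign of both depends on the scale.

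Msmo1, which removes the methyl groups at carbon 4 of the sterol ring, had a difference of 0.39 ± 0.21 (SE; adjusted p = 0.281) that rested on few arrays. It was 0.20 without KO 4 and 0.60 with KO 2 and KO 3 left out (adjusted p = 0.129). KO 4 read 0.68 and the other KO arrays between -0.12 and -0.08, while WT 1 read 0.17 and the other WT arrays between -0.50 and -0.42. Hmgcs1, Idi1, Sqle, Sc5d, Fdft1, Lss, Hsd17b7 and the elongase gene Elovl6 shared part of this shape. KO 4 was the highest KO array and WT 1 the highest WT array in each. Their differences were above 0 except that of Hsd17b7, at -0.07. This shape was picked after the values of Msmo1 were seen, and its share among all genes was not counted. It is therefore not shown to be particular to these genes. KO 4 was also the array farthest from WT on the first principal component of all genes, at 50.21.

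Other steps of the pathway differed less. Fdft1, squalene synthase, had 0.11 ± 0.14 (SE), Lss, lanosterol synthase, 0.14 ± 0.15, Cyp51, lanosterol demethylase, 0.09 ± 0.10, and Sc5d, a sterol desaturase, 0.15 ± 0.13. Tm7sf2, a sterol reductase, had -0.01 ± 0.13, Hsd17b7, a sterol ketone reductase, -0.07 ± 0.14, and Nsdhl, a dehydrogenase that acts with Msmo1, -0.12 ± 0.12. Dhcr7, the last reductase, had -0.12 ± 0.15 over 3 KO arrays. Without KO 2 only KO 1 and KO 4 were left for this gene, and it had -0.29 (limma adjusted p = 0.103). With KO 2 and KO 3 left out, Fdft1 had 0.21, Sc5d 0.28, Tm7sf2 0.19, Hsd17b7 0.02 and Nsdhl -0.23 (-0.21 without KO 2 alone), none past the threshold. The other tested probes had -0.12 (Tm7sf2), -0.13 (Hsd17b7) and 0.02 (Nsdhl) with all arrays. Without KO 2 and KO 3 these probes had -0.11, -0.16 and 0.03, each opposite in sign to the brightest probe of its gene. KO 2 read 0.74 for Dhcr7 and 0.57 for Nsdhl, above every WT array, while KO 1 read 0.18 and 0.02, below every one. At the other probe of Nsdhl, KO 1 and KO 2 were inside the WT range. With all arrays and the brightest probes, the intervals of these 8 genes reached at most 0.49 above and 0.46 below 0. A difference of 2-fold is outside all of these intervals, whereas smaller ones are not.

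The sterol sensing genes had 2 of 6 differences above 0 and a median of -0.15. Srebf2, whose product mainly drives sterol genes, read -0.05, -0.10, 0.23 and 0.31 on WT 1 to WT 4 and 0.50, 0.20, -0.33 and 0.61 on KO 1 to KO 4. KO 1 and KO 4 were above all WT arrays and KO 3 was below all of them. The difference was 0.15 ± 0.20 (SE; limma adjusted p = 0.675), and 0.46 ± 0.14 with KO 2 and KO 3 left out (adjusted p = 0.0470), but a second tested probe had 0.00321 ± 0.09 with all arrays and 0.09 without those 2 (adjusted p = 0.522). Leaving out single arrays moved the Srebf2 difference between 0.027 (without KO 4) and 0.34 (without KO 3).

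Srebf1, whose product mainly drives fatty acid genes, read 0.01, -0.09, -0.06 and 0.14 on WT 1 to WT 4 and -0.02, -0.26, -0.33 and -0.08 on KO 1 to KO 4. KO 2 and KO 3 were below every WT array and KO 1 and KO 4 were inside the WT range. The difference was -0.17 ± 0.10 (SE; adjusted p = 0.311), and -0.05 with KO 2 and KO 3 left out (adjusted p = 0.733). Scap had -0.12 ± 0.09, and Stard4, which moves cholesterol through the cytosol, -0.18 ± 0.10, or 0.07 ± 0.14 at its other tested probe. With KO 2 and KO 3 left out Scap had -0.23 (adjusted p = 0.0887) and Stard4 -0.07 (adjusted p = 0.666).

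The 2 INSIG genes had opposite signs. Insig2 read 0.01, -0.05, 0.09 and 0.02 on WT 1 to WT 4 and 0.41, 0.12, 0.13 and 0.69 on KO 1 to KO 4. Every KO array was above every WT array, with KO 2 and KO 3 close to WT 3 and KO 1 and KO 4 well above. The difference was 0.32 ± 0.13 (SE; limma adjusted p = 0.176), and 0.53 ± 0.10 with KO 2 and KO 3 left out (adjusted p = 0.00979). It was read by a probe for NM_133748, while the probe for the transcript NM_001271532 had -0.04 ± 0.10 with overlapping groups. Without KO 4 the Insig2 difference was 0.21, and with median centring it was -0.02. Insig1, itself a target of the SREBP factors in many tissues, had -0.19 ± 0.12 over 3 KO arrays (adjusted p = 0.348). Without KO 2 only KO 1 and KO 4 were left for Insig1, and it had -0.29 (limma adjusted p = 0.111).

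**Figure D2:**
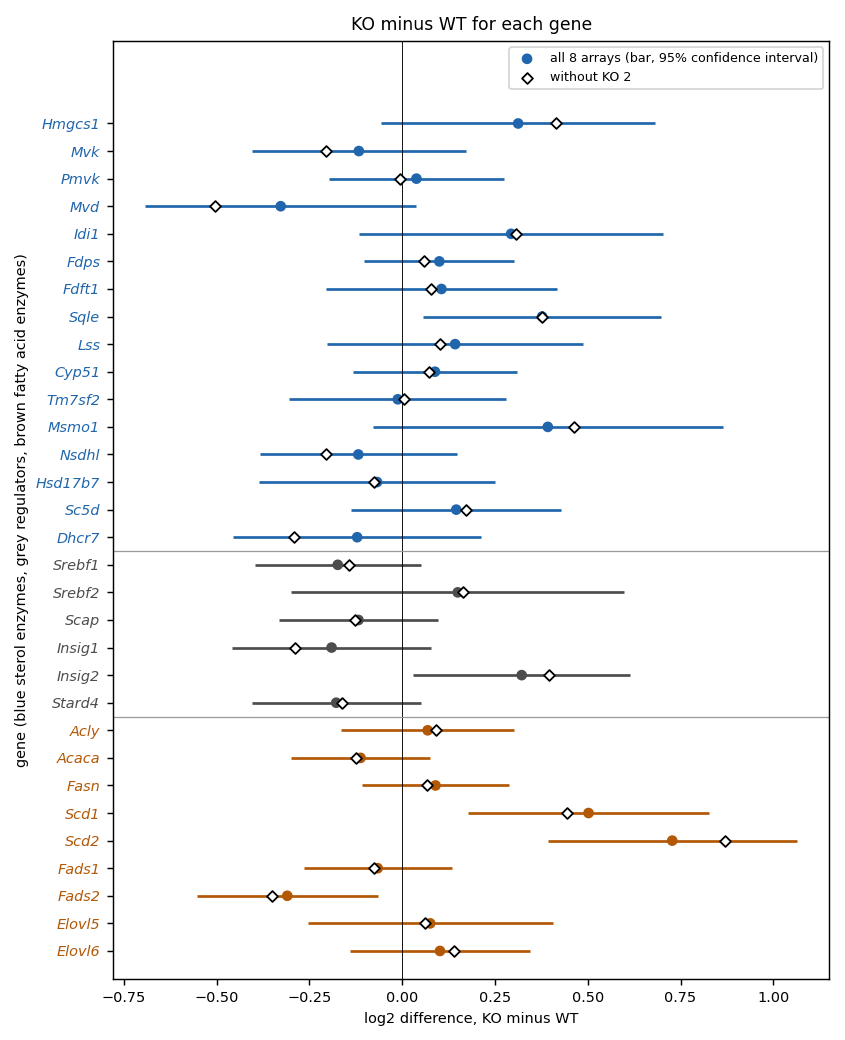
The x axis is the log2 difference between KO and WT for each gene, with filled points for all 8 arrays, bars for the 95% confidence interval, and open diamonds for the fit without KO 2. Sqle, Insig2, Scd1, Scd2 and Fads2 have intervals that leave out 0 before adjustment, and Mvd moves furthest to the left without KO 2.

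The 9 fatty acid enzymes had differences from -0.31 to 0.73, and both ends belonged to desaturases. The 3 genes of chain synthesis lay between -0.11 and 0.09. Fasn, fatty acid synthase, read 0.17, 0.28, 0.31 and 0.33 on WT 1 to WT 4 and 0.35, 0.41 and 0.33 on KO 1, KO 2 and KO 4. The values of KO 4 and WT 4 were nearly equal, and the difference was 0.09 ± 0.09 (SE, n = 4 and 3; limma adjusted p = 0.555; 95% confidence interval -0.11 to 0.29). Acaca, acetyl-CoA carboxylase, had -0.11 ± 0.08 at its brightest probe and 0.08 and -0.14 at the other 2. With KO 2 and KO 3 left out the brightest probe had -0.07.

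Acly, the citrate lyase that supplies cytosolic acetyl-CoA, was read differently by its 2 probes. The brighter one, for NM_001199296, read 0.20, 0.13, 0.09 and 0.08 on WT 1 to WT 4 and 0.14, 0.13, 0.47 and 0.05 on KO 1 to KO 4. Only KO 3 stood above the WT arrays, and the difference was 0.07 ± 0.10 (SE; limma adjusted p = 0.716), or -0.03 with KO 2 and KO 3 left out. The probe for NM_134037 read 0.43, 0.37, 0.08 and 0.20 in WT and -0.17, 0.21, -0.31 and -0.52 in KO. There KO 1, KO 3 and KO 4 were below every WT array, with a difference of -0.46 ± 0.15 (adjusted p over all probes = 0.132), and -0.60 without KO 2 (adjusted p = 0.00977).

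**Figure D3:**
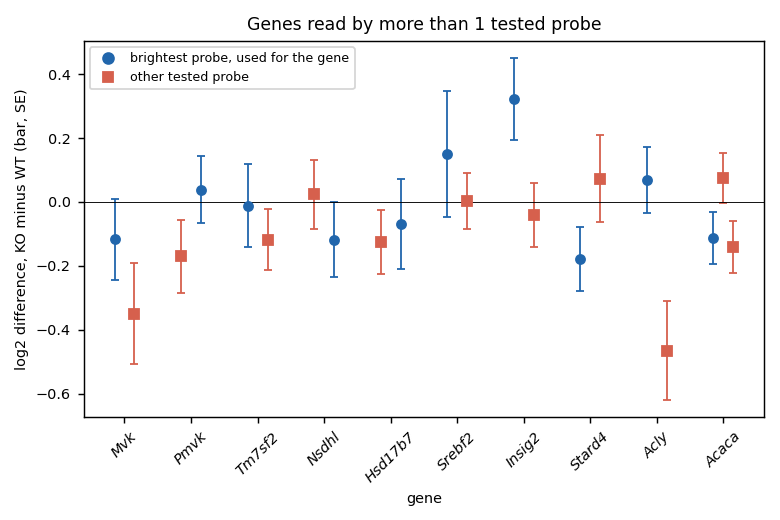
Log2 differences between KO and WT (y axis, with SE bars, 4 arrays against 4 or 3) are plotted for every tested probe of the 10 genes with more than 1 tested probe, circles for the brightest probe and squares for the others. The probes of 6 genes differ in sign, and the widest gaps are those of Acly (0.07 and -0.46) and Insig2 (0.32 and -0.04).

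The desaturases held the largest differences of the set. Scd2, which places the double bond of monounsaturated fatty acids and is the isoform of embryonic and neural tissue, read 0.04, -0.11, 0.05 and -0.12 on WT 1 to WT 4. On KO 1 to KO 4 it read 0.74, 0.27, 0.73 and 1.05. Every KO array was above every WT array, and KO 2 was the lowest of them.

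The Scd2 difference was 0.73 ± 0.15 (SE, n = 4 per group), or 1.66-fold, with an adjusted p of 0.105 in limma and a 95% confidence interval from 0.39 to 1.06. Without KO 2 it was 0.87 ± 0.11 (adjusted p = 0.00222). Leaving out KO 3 as well gave 0.92 ± 0.11 (adjusted p = 0.00215). It stayed above 0 in all 23 alternatives, from 0.13 with median centring to 0.92.

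Scd1, the isoform best known from liver and fat, read 0.03, -0.12, 0.21 and -0.25 on WT 1 to WT 4 and 0.72, 0.64, 0.28 and 0.23 on KO 1 to KO 4. Every KO array was again above every WT array, though KO 4 exceeded WT 3 by little. KO 2 was among the high arrays here, unlike for Scd2. The difference was 0.50 ± 0.15 (SE), or 1.42-fold (limma adjusted p = 0.118), and 0.44 without KO 2 (adjusted p = 0.0699). Over the 23 alternatives it ranged from 0.20 to 0.86, and it passed in 1 of them, the fit with array weights (adjusted p = 0.0351).

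Fads2, the delta-6 desaturase of polyunsaturated fatty acids, had the opposite sign. It read 0.30, 0.10, 0.11 and 0.34 on WT 1 to WT 4 and 0.03, 0.03, -0.33 and -0.12 on KO 1 to KO 4. Every KO array was below every WT array, KO 2 included. The difference was -0.31 ± 0.11 (SE; limma adjusted p = 0.143), -0.35 without KO 2 (adjusted p = 0.0572), and below 0 in all 23 alternatives, from -0.81 with the scanner's own log ratio to -0.23 without KO 3. Fads1, the delta-5 desaturase that acts in the same route, had -0.07 ± 0.09. The elongase genes Elovl5 and Elovl6 had 0.08 ± 0.15 and 0.10 ± 0.11, and 0.20 and 0.16 with KO 2 and KO 3 left out.

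Fat cells express Scd1 strongly, so their markers are given beside these values. Of 7 adipocyte markers, Adipoq, Plin1, Cidec and Lep were well above background on no WT array and on at most 2 of the KO arrays. The 3 others were measured in both groups and had differences of 0.54 ± 0.37 (Fabp4), 0.46 ± 0.34 (Lpl) and -0.06 ± 0.27 (Pparg), with list medians from -1.0 to 0.91 on the WT arrays and from 0.20 to 0.43 on the KO arrays. Their part in the Scd1 and Scd2 values was not tested.

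Set side by side, the sterol enzymes had a median difference of 0.09 with 10 of 16 above 0 and the fatty acid enzymes 0.08 with 6 of 9, where all genes had -0.02 and 45.9% above 0. By array the sterol median was 0.21, 0.07, -0.02 and 0.03 on WT 1 to WT 4 and 0.08, 0.20, 0.04 and 0.28 on KO 1 to KO 4. The groups overlapped, with WT 1 above KO 1, KO 2 and KO 3. The fatty acid median was 0.20, 0.13, 0.10 and 0.08 on the WT arrays and 0.15, 0.23, 0.17 and 0.23 on the KO arrays, again with WT 1 inside the KO range. The signs of these medians depend on the scale: with median centring, which moved the median of all genes to -0.30, they were -0.29 and -0.36, and with Cy5 alone, where all genes had -0.17, the sterol median was -0.01.

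**Figure D4:**
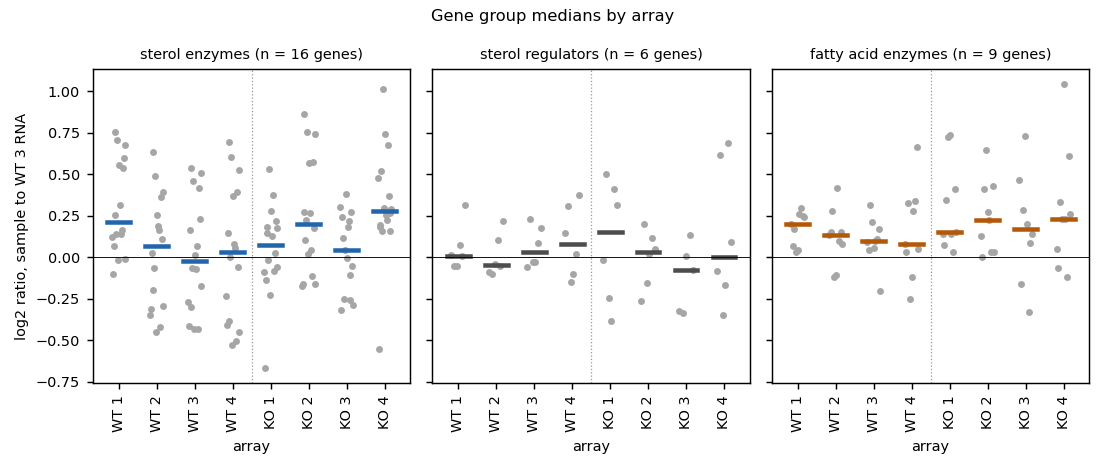
Grey points are the log2 ratios of single genes on each array, coloured bars the median of the group on that array, and the dotted line divides WT from KO arrays. The sterol enzyme median is 0.21 on WT 1 and 0.28 on KO 4, and the KO and WT medians of all 3 groups overlap.

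KO 2 lay among the WT arrays over all genes, and its place was read again over the 31 members. Its value was inside the range of the WT arrays for 13 members (41.9%) against 58.7% of all genes, and it was above that range for 12 and below it for 6. KO 1 was inside for 17 of 31 members (54.8%) against 35.1% of all genes. KO 3 was inside for 10 of 28 (35.7%) against 34.6%, and KO 4 for 6 of 31 (19.4%) against 33.8%, with 16 members above. By this share KO 1 was the array closest to WT among the members, and KO 2 among all genes. These differences in share were not tested.

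Neighbouring steps were read from lists of other pathway genes, at the brightest tested probe of each gene only. Some of these genes, Nus1 and Dhdds among them, had another probe on the array, and the probes were not compared. None of the 65 genes tested in 5 such lists passed limma's test with all 8 arrays, and 15 (23.1%) had an unadjusted p under 0.05. Without KO 2, 13 of 65 (20%) passed, against 21.2% of all genes. Among other sterol and isoprenoid synthesis genes 7 of 8 were below 0 (median -0.12). Nus1 and Dhdds, which encode the 2 subunits of the enzyme that makes dolichol, had -0.46 ± 0.13 and -0.33 ± 0.11 (SE), and they were the 2 of the 8 that passed without KO 2, at -0.57 (limma adjusted p = 0.00713) and -0.41 (adjusted p = 0.0200). Ggps1, which makes geranylgeranyl diphosphate, had -0.22 ± 0.14.

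Genes of sterol transport and sensing outside the set were evenly divided, with 9 of 17 above 0 and a median of 0.00159. Tmem97, a sterol-regulated membrane protein, had -0.37 ± 0.13 (SE), and the cholesterol exporter Abca1 had 0.45 ± 0.17. Without KO 2 these were -0.49 (limma adjusted p = 0.00736) and 0.57 (adjusted p = 0.0348). Mbtps1, the protease that makes the initial cut in SREBP, had 0.21 ± 0.08 with groups that did not overlap.

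Other genes of fatty acid synthesis had 14 of 24 above 0 and a median of 0.08, or -0.000989 without KO 2. Mid1ip1, which activates acetyl-CoA carboxylase, read between -0.29 and -0.20 on the WT arrays and between 0.04 and 0.25 on the KO arrays, with no overlap. Its difference was 0.37 ± 0.08 (SE; limma adjusted p = 0.106), and 0.40 without KO 2 (adjusted p = 0.0116). Acsl4, an acyl-CoA synthetase that prefers arachidonic acid, also did not overlap, at 0.56 ± 0.13 (adjusted p = 0.106), and had 0.63 without KO 2 (adjusted p = 0.0110). The citrate carrier Slc25a1, which exports the substrate of Acly, had -0.38 ± 0.13, and -0.49 without KO 2 (adjusted p = 0.0132).

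In glycerolipid synthesis 5 of 6 genes were below 0, with Agpat2, an acyltransferase, at -0.41 ± 0.12 (SE) and no overlap between groups. It had -0.50 without KO 2 (limma adjusted p = 0.0117). Fatty acid oxidation genes, the opposite route, had 6 of 10 above 0 and a median of 0.11. Hadha, a subunit of the mitochondrial trifunctional protein, had the smallest p of that list, with -0.34 ± 0.13, and it passed without KO 2 at -0.44 (limma adjusted p = 0.0286).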

How the data were processed

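Agilent mouse whole-genome 2-colour arrays were read for 4 WT and 4 KO samples, 1 array each. The authors deposited scanner output that the submitters' processing notes credit to Feature Extraction 10.7.3.1 from Agilent, with signals and backgrounds as linear intensity, and, per the file headers, a log10 ratio of Cy5 to Cy3 for each spot. A series value table deposited by the authors differed from those ratios by at most 0.00496 on the log10 scale. Total RNA of 0.5 µg was labelled per reaction, per the labels' protocols.

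Here, median signals were corrected with normexp (offset 50) and loess in limma 3.58.1 (R 4.3.3), with control spots given weight 0 and outlying spots left out afterwards. Probes needed a Cy5 signal flagged as well above background on 4 or more arrays and at least 3 usable arrays in each group. The brightest probe stands for a gene, and genes were named through RefSeq accessions. KO was compared with WT by lmFit and eBayes, two-sided, with Benjamini-Hochberg adjustment over all 23343 genes, or over 31667 probes. No spot was saturated. The code was tested on simulated data. The labels call the samples biological replicates, and 4 arrays a group limit the precision.

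The members and the lists were chosen with earlier results of these data known. Values on every array are given for members with an unadjusted p under 0.05, groups that do not overlap, or probes of opposite sign with 1 at an unadjusted p under 0.05, and for Srebf1, Srebf2, Hmgcs1, Fasn and Scd1. Those of Mvd, Msmo1 and the second Mvk probe were added after their values were seen. From each neighbouring pathway list, up to 3 genes with the smallest p are named. Markers of proximal tubule, endothelium, macrophages and erythroid cells were also read, with median differences of -0.13, 0.22, -0.04 and 0.03. The alternatives covered background correction, normalisation, the filter, the choice of probe, array weights, a replicate block and left-out arrays.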

Additional observations from a re-analysis of the deposited data

Results flagged for a closer look

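In each genotype, for each gene with 4 values and for the medians of the sterol and the fatty acid enzymes, the array farthest from the rest was compared with the whole range of those 4. Of 63 such sets of 4 values, 3 had a gap above Dixon's 95% critical value, and chance alone marks about 1 in 20. Mvd stood out among the KO arrays, where KO 2 read 0.86 and the others 0.11 to 0.19, a gap of 0.897 of the range. Msmo1 stood out in both groups. Among KO arrays KO 4 read 0.68 and the others -0.12 to -0.08, a gap of 0.956 of the range, and among WT arrays WT 1 read 0.17 and the others -0.50 to -0.42, a gap of 0.874.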

How the results depend on the processing

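Each of the 31 genes was refitted under 23 alternatives, 1 of them (outlying spots also left out of the loess curve) added after the data were seen. The sign turned in 42 of these fits, and 10 fits passed the test where the main one had not. The genes called over the whole array numbered 2, and 1 with normexp offset 0, without background subtraction or with the mean over probes, 5 with scaling between arrays or with the added loess curve, 4 with no filter (37016 genes tested), 16 with a robust intensity trend, 4542 with array weights, and 1 to 4947 (without KO 2) when 1 array was left out. Median centring and Cy5 alone gave 0 in limma, with 6785 and 3751 genes at an unadjusted p under 0.05, and leaving out KO 2 and KO 3 gave 5510. Of the members, 4 were called with array weights (Insig2, Mvd, Scd1, Scd2), 4 without KO 2 and KO 3 (Insig2, Mvd, Scd2, Srebf2), and 0 to 2 with 1 array left out, 2 being Mvd and Scd2 without KO 2. The causes were not tested.

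Replicate numbers did not pair the samples: deviations of arrays with the same number correlated at -0.24, 0.05, 0.11 and -0.02. A fit with the replicate block called 0 genes in limma (5264 at an unadjusted p under 0.05), and 0 members.

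Median centring gave -0.29 for the sterol enzyme median and -0.36 for the fatty acid median, and Cy5 alone gave -0.013 for the former. They ranged from 0.03 to 0.15 and from 0.03 to 0.10 with 1 array left out. With median centring the sign turned for Insig2 (-0.016), Idi1 (-0.049), Msmo1 (-0.049), Lss (-0.055), Srebf2 (-0.10), Sqle (-0.11), Sc5d (-0.16), Cyp51 (-0.17), Fdft1 (-0.23), Elovl5 (-0.26), Hmgcs1 (-0.28), Elovl6 (-0.36), Fdps (-0.40), Acly and Pmvk (-0.50 each). With Cy5 alone it turned for Acly (-0.061), Lss (-0.13), Elovl5 (-0.15), Srebf2 (-0.19), Cyp51 (-0.43) and Fads1 (0.22). The mean over probes put Pmvk at -0.066 and Acly at -0.20, and array weights put Pmvk at -0.017 and Tm7sf2 at 0.076. Tm7sf2 was at 0.0091 without background subtraction, 0.019 with normexp offset 0 and 0.024 with the added loess curve. Pmvk was at -0.0024 with the scanner's ratio and -0.0023 with the value table. Without KO 2 and KO 3, Acly was at -0.034, Pmvk at -0.079, Hsd17b7 at 0.023 and Tm7sf2 at 0.19. With 1 array left out, Pmvk ranged from -0.0057 to 0.13, Tm7sf2 from -0.10 to 0.11, Acly from -0.022 to 0.12, Hsd17b7 from -0.16 to 0.058 and Fdft1 from -0.0092 to 0.20.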
